A study of Mus musculus with 6 samples.

Results

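The cholesterol genes described here are 32 genes for mevalonate and sterol synthesis, for the control of SREBP2, for cholesterol transport and storage, and for efflux. They were chosen by symbol, and all 32 were among the 24434 genes of the deposited count table. Of these, 19 encode synthesis enzymes, 4 the SREBP2 control proteins, 4 transport and storage proteins, and 5 efflux proteins or their regulators. The RNA came from whole kidneys of mice on normal chow, with 3 libraries labelled db/m and 3 labelled db/db. Mice with a pair of db alleles lack the long signalling form of the leptin receptor in every tissue and become obese and diabetic, and the series takes db/db as its model of diabetes, with db/m, which carry a single db allele, as control. No label gives age, sex or strain. Nor do the labels state that the libraries are separate animals, and p-values therefore reflect only how these libraries varied, which may be technical.

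Cells make cholesterol from acetyl-CoA. The mevalonate pathway builds isoprenoid units, joins them to farnesyl diphosphate and then squalene, and closes squalene to lanosterol, which a series of endoplasmic reticulum enzymes trims to cholesterol. When sterol in that membrane is low, Scap escorts the transcription factor SREBP2 to the Golgi to be cut and freed, whereas Insig proteins hold the complex back when sterol is high. Oxidised sterols bind the liver X receptors, LXRalpha and LXRbeta, which switch on efflux genes such as Abca1, Abcg1 and Apoe. In the kidney, proximal tubule cells make cholesterol and also take up lipoproteins and filtered proteins.

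Total counts ranged from 25937756 to 35931140 per library. Levels are given as CPM, the count scaled to the TMM-adjusted library size. Summed CPM of 8 kidney segment and podocyte markers was 10080 to 10950 in db/m and 11040 to 12600 in db/db, so the tissue label had its defining genes. Of 6 adrenal cortex markers 5 were in the table, and together they came to 4.35 to 6.58 CPM in db/m and 3.45 to 3.91 CPM in db/db. Most of this was Star, at 3.29 to 6.11 CPM, while Mc2r was at 0.58 CPM or less and Cyp11a1 had 11 and 7 counts in db/m replicates 2 and 3 and 0 elsewhere. Cyp11b1 and Cyp21a1 had 0 counts in all 6 libraries. As a rough upper limit for a count of 0, 3 counts were taken, which would be 0.0835 to 0.116 CPM of the total counts. Adipocyte markers summed to 67.8 CPM in db/m replicate 3 and 140.3 CPM in db/db replicate 3, against 0.674 to 5.31 CPM in the other 4 libraries. Lepr, the leptin receptor gene, overlapped between the groups at 2.48 to 3.61 CPM in db/m and 2.54 to 5.66 CPM in db/db, and a count over the whole gene need not show the altered splicing of the db allele.

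Synthesis genes rose in part, at both ends of the pathway, while the efflux group split. Of the 32 members, all of which passed the filter on low counts, 11 were higher and 1 was lower in db/db with adjusted p under 0.05 (quasi-likelihood test of edgeR, with Benjamini-Hochberg adjustment across all genes), and 20 did not pass. Among the 16373 genes tested, 24.0% passed, 13.1% higher and 10.8% lower. The 19 synthesis members gave 9 of the rises, and their median log2 fold change was 0.55, beside -0.06 for all genes tested. None of the 19 fell in edgeR, DESeq2 or limma-voom (0 by each), although 2 were lower at an unadjusted p below 0.05. The db/db libraries lay wholly above the db/m libraries for 15 members and wholly below for 3, against 22.4% and 22.2% of all tested genes, or 44.6% in all. Scaling by total counts only lowered the median of all genes to -0.32, and the share of calls that were higher from 54.8% to 18%. The split of the members then became 7 higher and 4 lower, with Fdps, Lss and Npc1 joining Apoe among the lower ones. Relative to the median of all genes, the synthesis median stood at 0.61 with TMM and 0.60 with total counts. A change of scaling shifts all genes nearly alike, so this difference had to stay nearly the same and is no check on the result.

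**Figure D1:**
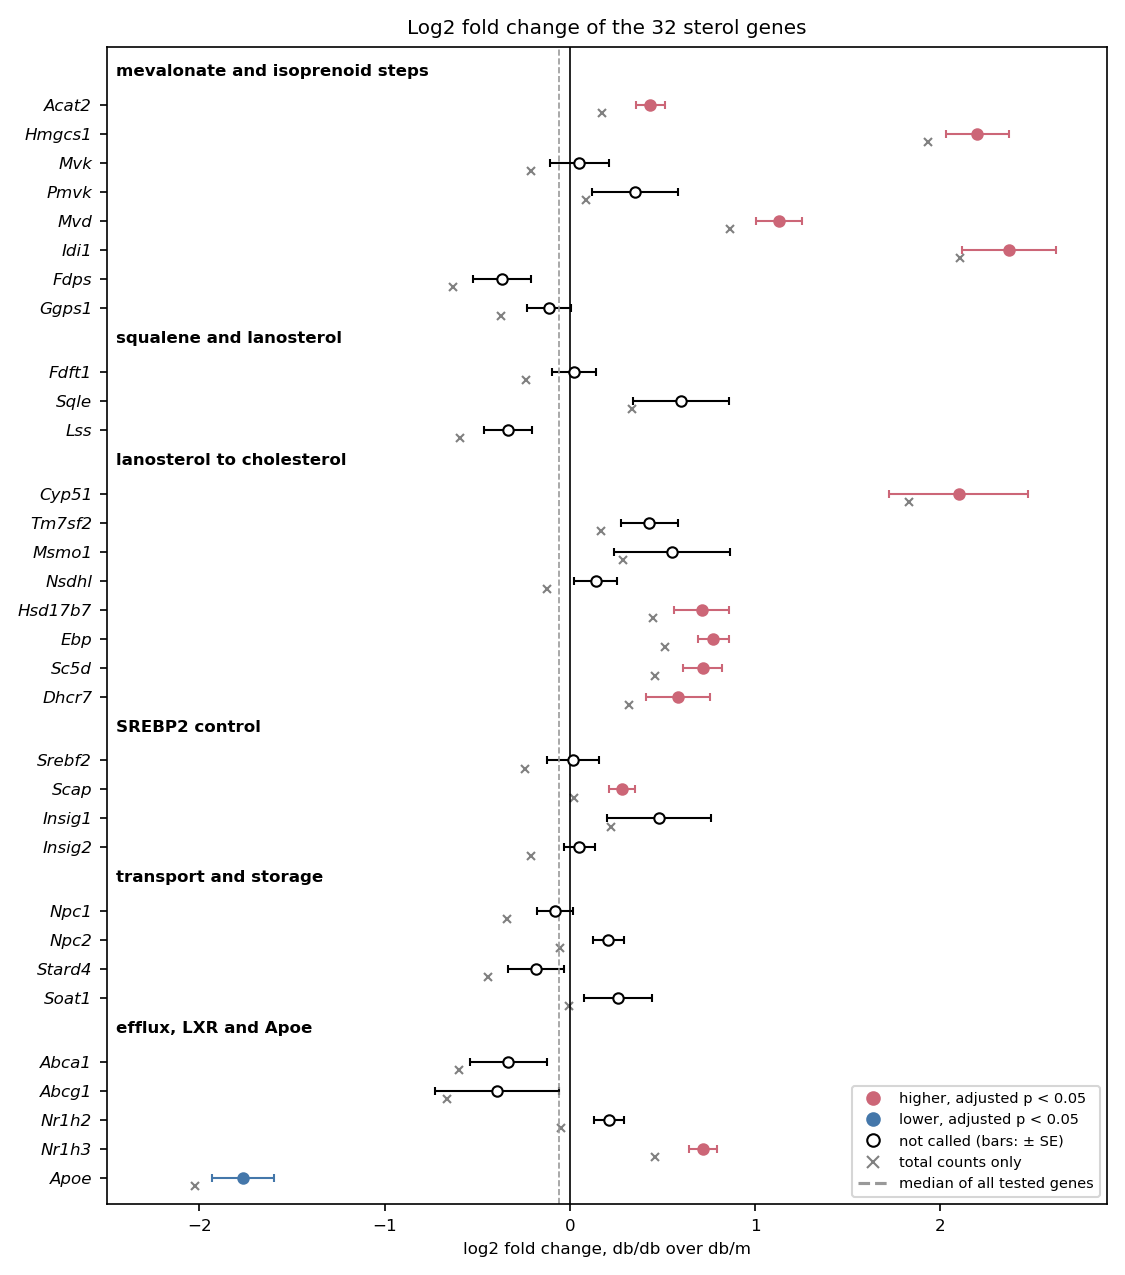
Log2 fold change of db/db over db/m for the 32 genes by role, with the SE as bars, from the edgeR fit with TMM scaling. Filled points passed an adjusted p of 0.05, crosses give the value with total counts only, and the dashed line is the median of all tested genes; 9 filled points lie among the synthesis genes, and every cross lies to the left of its point.

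In the mevalonate and isoprenoid steps, 4 of 8 members rose. Hmgcs1, which joins acetyl-CoA to acetoacetyl-CoA to make HMG-CoA, stood at 97.8, 92.2 and 137 CPM in db/m and at 547, 504 and 453 CPM in db/db. The groups were far apart, the lowest db/db library being more than 3 times the highest db/m library. Its log2 fold change was 2.20 (SE 0.17, adjusted p = 0.000415, edgeR). Idi1, the isomerase that makes the reactive isoprenoid unit, was at 10.9, 10.4 and 16.5 CPM in db/m and at 84.5, 49.0 and 61.9 CPM in db/db. Its log2 fold change, 2.37 with SE 0.25 (adjusted p = 0.00139), was the largest of the 32, though the db/db libraries differed among themselves, with replicate 1 highest and replicate 2 lowest. Mvd, the decarboxylase that acts just before Idi1, was at 29.2, 28.6 and 35.7 CPM against 71.7, 72.6 and 59.7 CPM in db/db, with log2 fold change 1.13 (SE 0.12, adjusted p = 0.00146). Because whole kidneys were sequenced, a change in RNA per cell and a change in the number of cells of a type cannot be told apart, here or below. All 6 markers of S3, the straight part of the proximal tubule, were also higher in db/db, but by unlike amounts. The ratio of group means ran from 1.85 for Slc5a8 to 56.4 for Acsm3. The summed level of these markers was 345 to 573 CPM in db/m and 3098 to 4169 CPM in db/db. Their part in the sterol gene results was not tested. In GENCODE M21, exons of genes on the opposite strand cover 12.1% of Hmgcs1 exon bases, 9.22% of Idi1, 18.3% of Fdft1 and 13.2% of Scap, and the labels do not state whether counting used strand.

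The promoters of a few members are printed because these genes moved most or steer the pathway, and because SREBP2 acts through short promoter sequences. They are the 250 bases before the RefSeq transcription start in GRCm38.p6, a build chosen for its sequence table, since the labels name no build for the counts. Hmgcs1 is at chr13:119690101-119690350, plus strand, Idi1 at chr13:8885356-8885605, plus strand, Cyp51 at chr5:4104698-4104947, minus strand, Srebf2 at chr15:82147019-82147268, plus strand and Apoe at chr7:19699189-19699438, minus strand. Each runs 5′ to 3′ towards the gene, and capitals mark matches on either strand to the sterol regulatory element core (TCACNCCA) or to the NF-Y box (CCAAT, or ATTGG on the other strand).
Hmgcs1: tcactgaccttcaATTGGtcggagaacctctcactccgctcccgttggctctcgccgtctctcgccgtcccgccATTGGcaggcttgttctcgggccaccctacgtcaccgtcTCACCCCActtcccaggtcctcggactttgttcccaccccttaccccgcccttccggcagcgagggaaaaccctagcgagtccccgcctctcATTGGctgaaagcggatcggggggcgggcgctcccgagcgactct
Idi1: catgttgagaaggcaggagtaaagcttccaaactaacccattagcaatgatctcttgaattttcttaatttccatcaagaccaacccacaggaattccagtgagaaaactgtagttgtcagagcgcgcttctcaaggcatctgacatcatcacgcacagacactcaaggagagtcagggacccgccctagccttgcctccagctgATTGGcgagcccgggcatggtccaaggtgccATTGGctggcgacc
Cyp51: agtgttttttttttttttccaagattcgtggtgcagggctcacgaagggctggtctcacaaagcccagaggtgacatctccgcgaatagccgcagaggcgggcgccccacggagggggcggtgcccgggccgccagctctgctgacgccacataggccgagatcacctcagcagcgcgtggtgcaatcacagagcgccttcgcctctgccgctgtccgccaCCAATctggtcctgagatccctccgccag
Srebf2: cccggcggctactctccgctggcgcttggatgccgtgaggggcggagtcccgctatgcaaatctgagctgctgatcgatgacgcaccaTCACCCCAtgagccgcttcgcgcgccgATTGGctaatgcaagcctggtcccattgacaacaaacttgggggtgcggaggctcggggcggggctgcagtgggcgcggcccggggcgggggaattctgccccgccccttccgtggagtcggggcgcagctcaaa
Apoe: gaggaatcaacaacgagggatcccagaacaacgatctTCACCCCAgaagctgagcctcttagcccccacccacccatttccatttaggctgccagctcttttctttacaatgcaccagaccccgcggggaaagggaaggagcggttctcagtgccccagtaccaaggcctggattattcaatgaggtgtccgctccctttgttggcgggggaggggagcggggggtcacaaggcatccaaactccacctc
The core began 137 bases before the start in Hmgcs1, 162 in Srebf2 and 213 in Apoe, always as TCACCCCA. Of the 3 RefSeq starts of Apoe, only the one printed has the core. RefSeq starts were found for 26 of the 32 members, and a gene is counted below as holding a motif if any of its listed starts does. Among the 16 synthesis members matched, the core was found in Hmgcs1 and Msmo1, that is in 1 of the 9 that rose and 1 of the 7 matched that did not pass. Counted in the same way, 4.2% of all 27025 genes in the table hold it, or 3.67% of the 32851 single promoters. The NF-Y box was found in 15 of the 16 synthesis members and in 0 of the 4 matched efflux members, against 37.5% of all genes counted in the same way, or 33.8% of single promoters. It was in 8 of the 9 synthesis members that rose and in 7 of the 7 matched that did not pass, so it did not separate them. Of the other matched members, 3 of 4 for SREBP2 control and 2 of 2 for transport and storage also held it. The E-box CACGTG was present in 3 of the 16 synthesis members, against 6.86% of all genes. These matches describe letters in a window and are no evidence of binding.

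Acat2, the cytosolic thiolase that supplies acetoacetyl-CoA to Hmgcs1, was at 93.5, 106 and 101 CPM in db/m and at 131, 135 and 139.8 CPM in db/db. All db/db libraries were above all db/m libraries, and the log2 fold change was 0.43 with SE 0.08 (adjusted p = 0.00898). This value is uncertain, because Acat2 has a closely related neighbour, Acat3, and how reads were assigned between the pair is not stated in the labels. Acat3, which was looked at after the Acat2 values were seen, fell from 58.8, 71.3 and 61.8 CPM to 25.7, 34.9 and 31.9 CPM (log2 fold change -1.05, SE 0.13, adjusted p = 0.00243). Added together, the pair came to 164 ± 12.5 CPM in db/m and 166 ± 8.03 CPM in db/db (SD, n = 3 each), with overlapping libraries. With total counts only, the log2 fold change of Acat2 was 0.17 and did not pass (adjusted p = 0.153).

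The other mevalonate members did not pass. The kinases Mvk and Pmvk, which phosphorylate mevalonate in turn, had log2 fold changes of 0.05 and 0.35, and Pmvk was at 32.3 CPM in db/db replicate 1 but at 21.3 and 19.9 CPM in the other two, within reach of the 24.3 CPM of db/m replicate 3. Fdps makes farnesyl diphosphate, the branch point between sterols and other isoprenoids. It was at 22.3, 21.9 and 27.4 CPM in db/m and at 21.8, 15.3 and 18.4 CPM in db/db. Every db/db value lay below every db/m value, but the nearest pair, at 21.8 and 21.9 CPM, almost met, and the log2 fold change of -0.37 (SE 0.16) had an adjusted p of 0.128, or 0.0264 with total counts only. In GENCODE M21, exons of the predicted gene Gm43738 on the same strand cover 26.7% of Fdps exon bases. Ggps1, which makes the geranylgeranyl chain for protein prenylation, was nearly level (log2 fold change -0.11, SE 0.12, adjusted p = 0.517).

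Between farnesyl diphosphate and lanosterol, 0 of 3 members passed in either direction in edgeR, DESeq2 or limma-voom, and Lss was lower at an unadjusted p below 0.05 in edgeR. Fdft1, or squalene synthase, was nearly level, at 29.3, 26.7 and 31.7 CPM in db/m and 34.0, 27.7 and 27.4 CPM in db/db (log2 fold change 0.02, SE 0.12). Sqle, the squalene monooxygenase, is a slow step of the pathway. It was at 25.0, 44.3 and 44.0 CPM in db/m and at 71.4, 42.5 and 58.0 CPM in db/db. Its spread within each group was wide and db/db replicate 2 fell among the db/m libraries, so its log2 fold change of 0.60 (SE 0.26) did not pass (adjusted p = 0.134). Lss, the cyclase that forms lanosterol, pointed down, from 25.95, 20.3 and 23.4 CPM to 20.0, 16.3 and 19.02 CPM (log2 fold change -0.34, SE 0.13, adjusted p = 0.101, or 0.0132 with total counts only).

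From lanosterol to cholesterol, 5 of 8 members rose, and the db/db libraries were above all db/m libraries for 7 of the 8. Cyp51, the demethylase that takes the first step from lanosterol, was at 24.6, 72.4 and 46.5 CPM in db/m and at 249, 156 and 211 CPM in db/db. The db/m libraries spread widely, yet the highest of them was below the lowest db/db library. The log2 fold change was 2.10 (SE 0.37, adjusted p = 0.00841). Ebp, a sterol isomerase, was at 67.2, 65.9 and 58.4 CPM in db/m and at 106, 108 and 113 CPM in db/db, with little spread in either group (log2 fold change 0.77, SE 0.08, adjusted p = 0.0014). Sc5d, a desaturase that acts next, was at 29.4, 25.1 and 26.8 CPM against 45.8, 40.1 and 47.7 CPM in db/db (log2 fold change 0.72, SE 0.10, adjusted p = 0.00382). Those 2 consecutive enzymes thus differed by about the same proportion. Dhcr7, a reductase at the end of the pathway, was at 12.4, 12.3 and 17.2 CPM in db/m and 24.2, 19.9 and 18.6 CPM in db/db. It only just passed (log2 fold change 0.59, SE 0.17, adjusted p = 0.0466), and failed to pass when db/m replicate 1 or 2 was left out (adjusted p = 0.105 and 0.134) or when db/db replicate 1, 2 or 3 was (0.132, 0.0938 and 0.0722). With total counts only it was 0.32 (adjusted p = 0.206), and with upper quartile factors the adjusted p was 0.0539. Hsd17b7, a ketoreductase of sterol demethylation, was at 13.7, 12.9 and 14.5 CPM in db/m and 26.3, 18.1 and 22.7 CPM in db/db (log2 fold change 0.71, SE 0.15, adjusted p = 0.0154). It failed to pass when db/m replicate 2 was left out (adjusted p = 0.0581), without db/db replicate 3 (0.053) or with total counts only (0.0609).

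The 3 other members of the lanosterol stage did not pass in edgeR. Tm7sf2, a sterol reductase, was at 13.2, 15.2 and 10.3 CPM in db/m and at 17.0, 17.8 and 17.4 CPM in db/db, without overlap, and did not pass (log2 fold change 0.43, SE 0.15, adjusted p = 0.0805, but 0.0451 in DESeq2). In GENCODE M21, exons of Vps51 on the same strand cover 12.1% of Tm7sf2 exon bases. Nsdhl, a dehydrogenase of the demethylation complex, hardly varied in db/db, at 56.4, 56.2 and 56.6 CPM, but the db/m libraries reached 55.7 CPM and its log2 fold change was 0.14 (SE 0.12). Msmo1, the oxidase of the same complex, was at 11.3, 15.2 and 22.4 CPM in db/m and 33.5, 17.6 and 20.6 CPM in db/db (log2 fold change 0.55, SE 0.31, adjusted p = 0.23). Its overlap came from db/m replicate 3 and from db/db replicates 2 and 3.

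**Figure D2:**
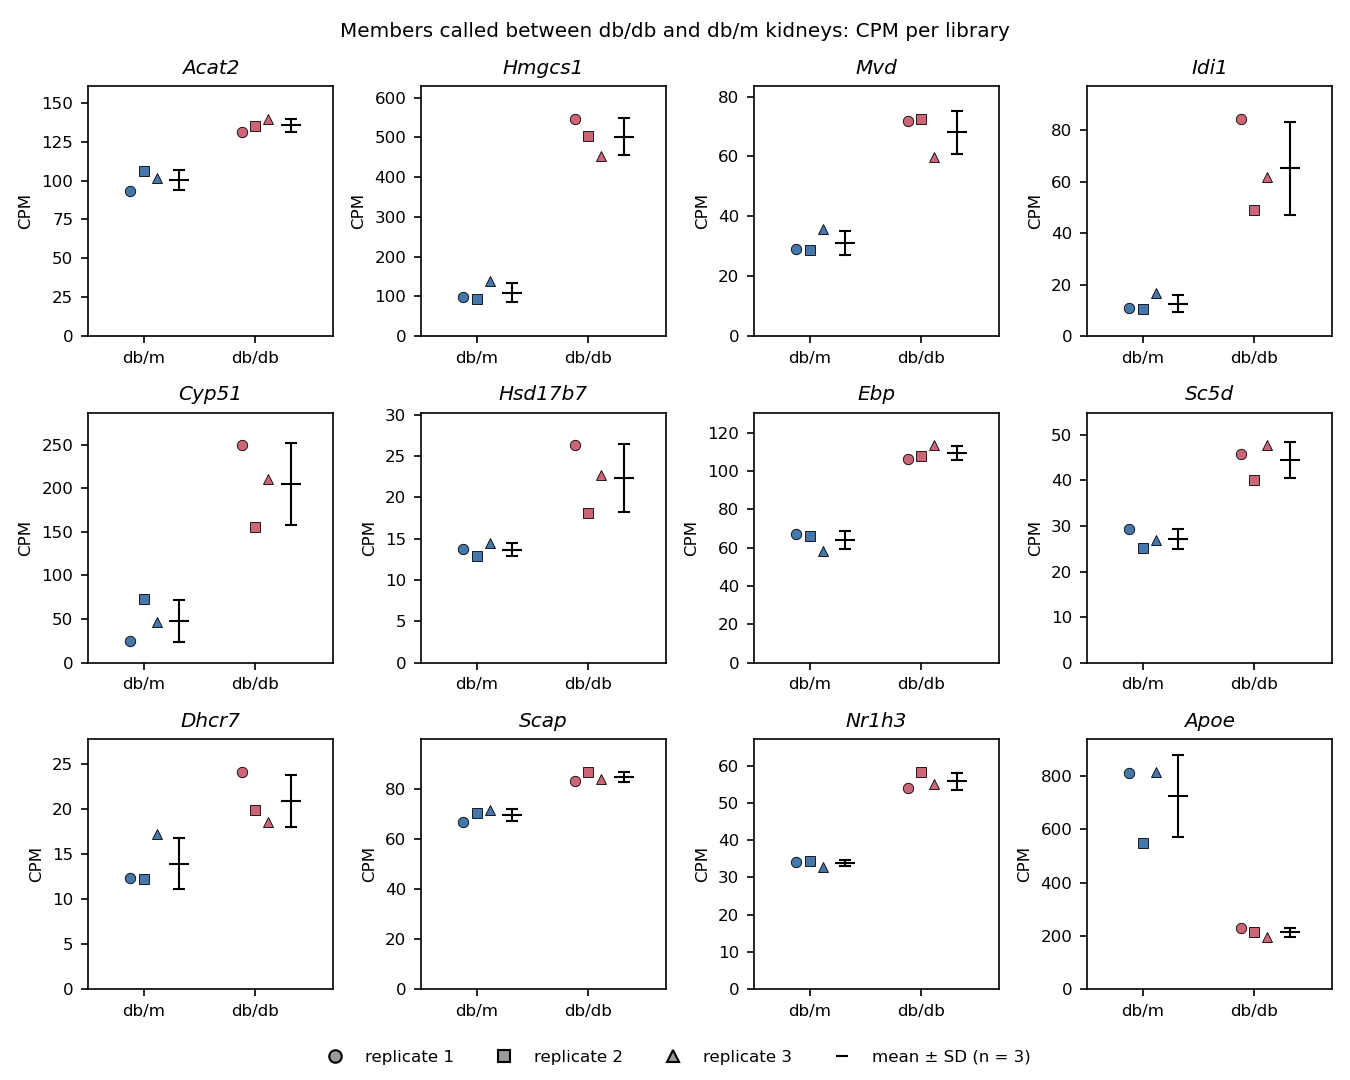
CPM per library for the 12 genes at an adjusted p below 0.05, with db/m on the left and db/db on the right of each panel, symbols for the replicates and the mean ± SD beside them (n = 3). The groups do not overlap in any panel, Apoe is the one gene lower in db/db, and Idi1 and Cyp51 show a wide spread in db/db.

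Of the SREBP2 control genes, 1 of 4 rose. Scap, the escort that senses sterol, was at 66.7, 70.4 and 71.3 CPM in db/m and 83.0, 86.7 and 83.8 CPM in db/db. The groups were tight and separate, but the difference was small (log2 fold change 0.28, SE 0.07, adjusted p = 0.0277). The call ended when db/m replicate 1 or 2 was left out (adjusted p = 0.0582 and 0.0715) or without db/db replicate 1, 2 or 3 (0.067, 0.076 and 0.0839), and with total counts only it was 0.02 (adjusted p = 0.845). Srebf2 itself, which encodes SREBP2, overlapped between groups at 57.7, 52.4 and 66.3 CPM in db/m and 71.0, 53.7 and 54.0 CPM in db/db (log2 fold change 0.02, SE 0.14, and -0.24 with total counts only). Insig1, an endoplasmic reticulum anchor and itself a target of SREBP2, was at 41.7, 22.9 and 51.1 CPM in db/m and 63.4, 44.3 and 53.7 CPM in db/db. It did not pass (log2 fold change 0.48, SE 0.28, adjusted p = 0.243), and db/m replicate 2 stood well below every other library. Insig2, the second anchor, was at 37.8, 40.4 and 40.1 CPM in db/m and 40.5, 38.6 and 43.5 CPM in db/db (log2 fold change 0.05, SE 0.08, adjusted p = 0.684), which turned to -0.21 by total counts.

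Among the transport and storage genes, 0 of 4 passed in edgeR, DESeq2 or limma-voom in either direction, and Npc2 alone was higher at an unadjusted p below 0.05. Npc1 and Npc2 carry cholesterol out of lysosomes after uptake. Npc2 was at 144, 138 and 144 CPM in db/m and 153, 178 and 161 CPM in db/db, without overlap (log2 fold change 0.21, SE 0.08, adjusted p = 0.111, turning to -0.05 by total counts). Npc1 was at 22.8, 20.3 and 21.7 CPM in db/m and 19.4, 19.9 and 21.9 CPM in db/db, and its change of -0.08 on the log2 scale (SE 0.10, adjusted p = 0.577) passed as lower with total counts only (-0.34, adjusted p = 0.0315). Stard4, a soluble sterol carrier and SREBP2 target, was at -0.18 on the log2 scale (SE 0.15). Soat1, which esterifies cholesterol for storage, had 0.26 (SE 0.18), and both overlapped between groups.

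The efflux group held the largest fall of the 32 genes and also a rise. Apoe encodes apolipoprotein E, which takes up cellular cholesterol and serves lipoprotein clearance. It was at 811, 548 and 815 CPM in db/m and at 228, 216 and 196 CPM in db/db. The db/db libraries were close to each other, and the lowest db/m library, replicate 2, was more than 2 times the highest of them. The log2 fold change was -1.76 (SE 0.17, adjusted p = 0.000889, edgeR). Macrophages also express Apoe. Of 8 macrophage markers 1, Lyz2, was lower, beside 10.8% of all tested genes, and the other 7 did not pass. The log2 fold change was negative for 7 of the 8 (list median -0.29). Csf1r went the other way, from 21.4, 40.6 and 40.2 CPM in db/m to 72.5, 44.1 and 55.1 CPM in db/db. Its groups did not overlap, but it did not pass (log2 fold change 0.75, SE 0.27, adjusted p = 0.0874, edgeR). Summed macrophage markers were 70.5, 189 and 208 CPM in the db/m libraries, replicate 1 first, and 128 to 149 CPM in db/db. The part of these cells in the fall of Apoe was not tested.

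Nr1h3, which encodes LXRalpha, rose. It was at 34.1, 34.5 and 32.9 CPM in db/m and 53.9, 58.4 and 55.0 CPM in db/db, with hardly any spread in either group. The log2 fold change was 0.72 (SE 0.08, adjusted p = 0.0013). Nr1h2, which encodes LXRbeta, was at 90.8, 94.1 and 80.8 CPM in db/m and 101, 106 and 102 CPM in db/db, without overlap but without passing (log2 fold change 0.21, SE 0.08, adjusted p = 0.106, turning to -0.05 by total counts). The cholesterol exporter Abca1 was at 20.2, 18.7 and 24.6 CPM in db/m and 12, 17.99 and 20.4 CPM in db/db (log2 fold change -0.33, SE 0.21, adjusted p = 0.274). Its partner exporter Abcg1 was at 6.25, 10.4 and 12.5 CPM in db/m and 5.26, 6.42 and 10.5 CPM in db/db (log2 fold change -0.39, SE 0.33, adjusted p = 0.416). Both exporters were lowest in db/db replicate 1 and overlapped between groups. On simulated counts for the same comparison, a 1.5-fold change was recovered for 18% of genes and a 2-fold change for 61.2%. Few genes were changed in that simulation, and 136 of 16038 passed, against 3925 of 16373 in the data. Adjustment is stricter when few genes differ, so these shares do not give the recovery for the exporters here.

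Set side by side, synthesis and efflux genes differed in the direction of their medians. The median log2 fold change was 0.55 over the 19 synthesis genes and -0.33 over the 5 efflux genes, a gap of 0.88. That gap was 0.88 with total counts only as well, since scaling shifts both medians alike, and 0.58 without db/db replicate 1. The efflux median itself rested on few genes, and was -0.16 without db/m replicate 3 and -0.13 without db/db replicate 1. The efflux median without Apoe was -0.06, close to that of all genes. In each library, the mean log2(CPM + 0.5) of the efflux genes was subtracted from that of the synthesis genes. The result was -0.99, -0.91 and -0.94 in db/m and 0.36, -0.18 and -0.16 in db/db, so the groups did not overlap and db/db replicate 1 stood highest. With Apoe left out of the efflux genes it was 0.00298, -0.06 and 0.00425 in db/m and 0.99, 0.39 and 0.35 in db/db. The separation was therefore present without Apoe, and the synthesis mean alone was 4.69 to 4.95 in db/m and 5.30 to 5.64 in db/db. No p is given for these sums, because the genes were chosen with results of these data known, and only differences between libraries can be read from them, since genes differ in length.

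**Figure D3:**
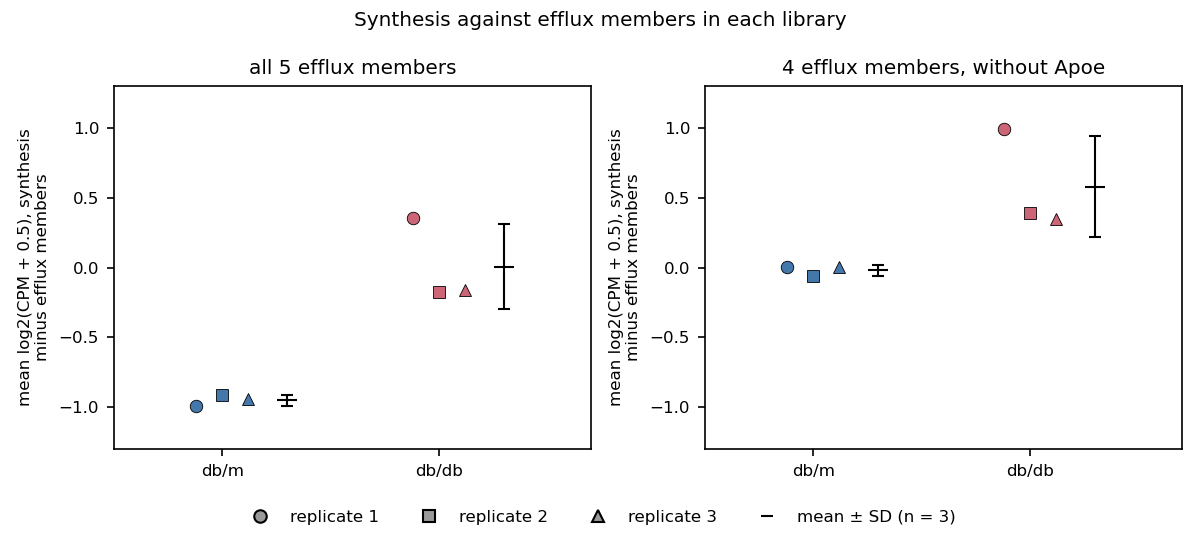
Mean log2(CPM + 0.5) of the 19 synthesis genes minus that of the efflux genes in each library, with all 5 efflux genes on the left and without Apoe on the right, and the mean ± SD beside the points (n = 3). The db/m libraries lie between -0.99 and -0.91 on the left, below all db/db libraries, and db/db replicate 1 is highest in both panels.

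Within the groups, high and low values of the synthesis genes were spread unevenly over the libraries. Replicate 1 held the highest of the 3 db/db values for 12 of the 19 synthesis genes, and replicate 2 the lowest for 11. In db/m, replicate 3 was highest for 11 and replicate 2 lowest for 11. Replicate 3 of each group also held most adipocyte transcripts. Without those 2 libraries, 6 of the 19 synthesis genes were higher, and Acat2, Cyp51 and Hsd17b7 had adjusted p = 0.0775, 0.0761 and 0.089 with log2 fold changes of 0.42, 2.06 and 0.75. For Hmgcs1, Idi1, Mvd, Ebp, Sc5d, Nr1h3 and Apoe the call held in all 16 alternatives tried.

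**Figure D4:**
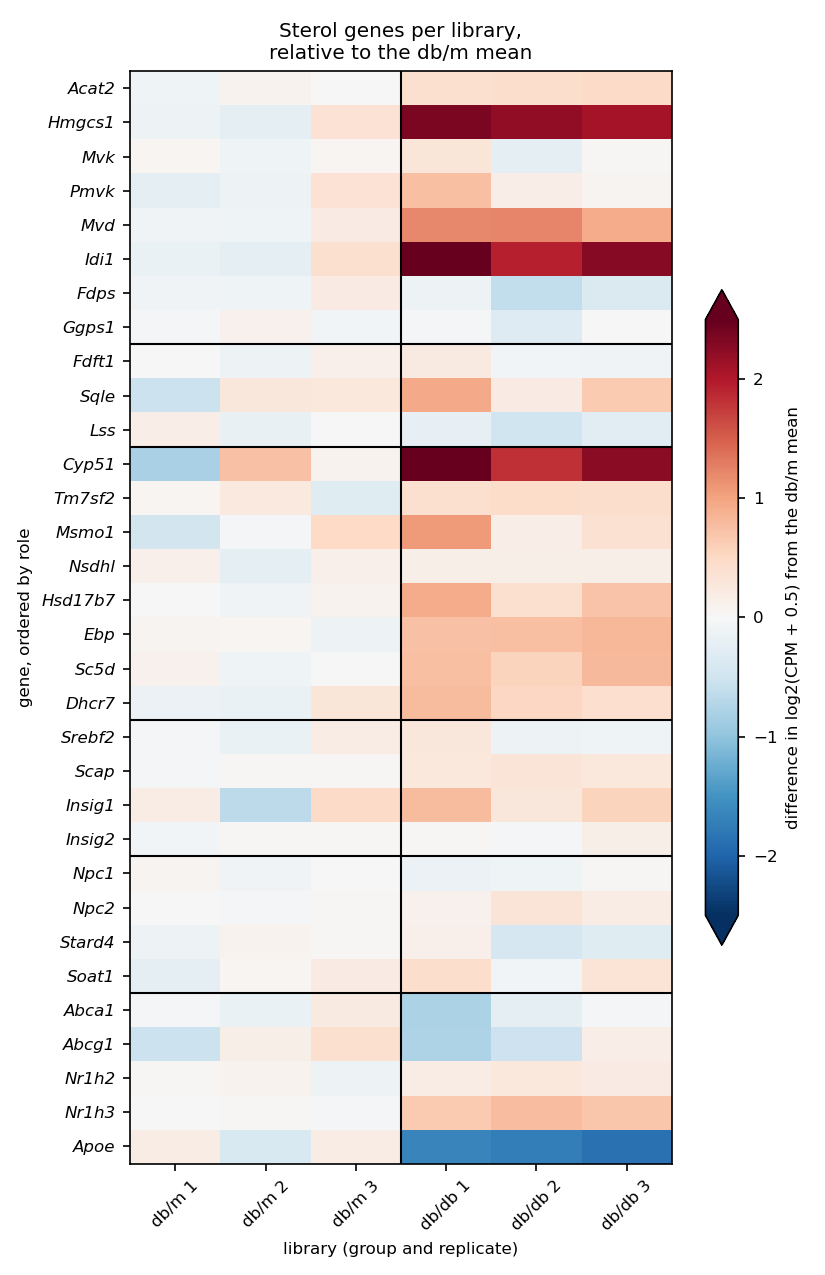
Difference of log2(CPM + 0.5) from the db/m mean for the 32 genes (rows, by role) in the 6 libraries (columns), with red for higher and blue for lower. Hmgcs1, Idi1 and Cyp51 are red in all db/db libraries, Apoe is blue in all of them, and db/db replicate 1 is the reddest column among the synthesis genes.

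Other genes of the sterol pathway, 26 in all and 25 of them tested, gave 4 rises and 3 falls. These shares, 16% and 12%, were near those of all tested genes, 13.1% and 10.8%, so the genes below are given singly and not as a result about the list. Among the rises was Lbr, a nuclear envelope protein with the same sterol reductase activity as Tm7sf2. It was at 22.7, 20.1 and 21.0 CPM in db/m and 34.3, 36.4 and 32.3 CPM in db/db (log2 fold change 0.69, SE 0.09), with no overlap between the groups. Mbtps1, the protease that makes the first cut in SREBPs, and Nceh1, which hydrolyses cholesteryl esters, were higher by 0.32 (SE 0.07) and 0.72 (SE 0.15). Among the falls were Abca7, a lipid transporter related to Abca1, and Mylip, a ubiquitin ligase gene that LXR switches on. Abca7 went from 28.5, 33.6 and 33.2 CPM to 14.6, 15.5 and 12.8 CPM (log2 fold change -1.15, SE 0.12, adjusted p = 0.00114), whereas Mylip had -0.73 (SE 0.17, adjusted p = 0.0223). The third was Gramd1c, a sterol carrier between membranes, with -0.95 (SE 0.20).

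Genes that use isoprenoids for other products were tested as a separate list of 12, of which 4 rose and 0 fell in edgeR, DESeq2 or limma-voom, with 0 lower at an unadjusted p below 0.05. The shares in edgeR were 33.3% and 0%, beside 13.1% and 10.8% of all tested genes. Their median log2 fold change was 0.25, beside -0.06 for all genes tested. With total counts only, 3 of the list were higher and 1 was lower. Pdss1, which builds the side chain of coenzyme Q, was at 14.7, 12.7 and 11.5 CPM in db/m and 25.5, 23.6 and 26.7 CPM in db/db (log2 fold change 0.96, SE 0.12, adjusted p = 0.00225). Rabggta, a subunit of the enzyme that prenylates Rab proteins, was higher by 0.85 (SE 0.13), Dhdds, of dolichol synthesis, by 0.64 (SE 0.09), and Trit1, which modifies transfer RNA with an isopentenyl group, by 0.55 (SE 0.15). The farnesyltransferase subunits Fnta and Fntb had 0.04 and 0.00198, and Rabggtb, the partner subunit of Rabggta, had 0.000726.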

How the data were processed

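Per the labels' protocols, polyadenylated RNA of whole mouse kidneys was made into strand-specific libraries. The submitters' processing notes name fastp, FastQC, HISAT2, SAMtools, StringTie and DESeq2, without versions or roles. The authors deposited raw whole-number counts for each gene symbol. Columns were matched to libraries by title. The labels name no genome build, annotation or counting setting.

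Genes were filtered with filterByExpr (minimum count 10), scaled by TMM and tested with glmQLFit and glmQLFTest (edgeR 4.0.16, R 4.3.3), 3 db/db against 3 db/m, with no covariate. The SE is the log2 fold change divided by the square root of F. DESeq2 1.42.0, limma 3.58.1 and other scalings, filters and subsets served as alternatives. The test was tried on simulated counts of 16038 genes, where 4 of 136 calls were false. Members and lists were chosen with earlier results of these data known. Values per library are given for members that passed and for every SREBP2 control and efflux member, with others added where informative, and of the other lists up to 4 called genes in each direction. A few listed genes are not reported here.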

Additional observations from a re-analysis of the deposited data

How the results depend on the processing

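Scaled by total counts only, edgeR called 1072 genes higher and 4883 lower in db/db, instead of 2151 and 1774. In that setting 2 synthesis genes, 1 transport gene, 8 other sterol genes and 1 isoprenoid gene were lower, 2 other sterol genes were higher, and 0 SREBP2 control genes were higher. The direction of Mvk, Fdft1, Nsdhl, Srebf2, Insig2, Npc2, Soat1 and Nr1h2, none of them called, also changed there. The replicate numbers pair nothing in the labels, and deviations of same-numbered libraries correlated at -0.18, 0.04 and 0.15. With the replicate block, 1313 genes were higher and 973 lower over all genes, 2 other sterol genes were higher, 0 control genes were higher, and 8 synthesis genes were higher, without Dhcr7. Without db/m replicate 3 and db/db replicate 3 together, 1052 genes were higher and 660 lower over all genes, 2 other sterol genes and 0 control genes were higher. Leaving out 1 library at a time gave 1374 to 2011 higher and 851 to 1523 lower genes in all, 0 to 1 control genes higher, 2 to 6 other sterol genes higher and 1 to 3 lower. The same gave 7 to 9 synthesis genes higher, and 0.58 to 1.09 for the gap between the synthesis and efflux medians. The causes were not tested. Where libraries were left out, their smaller number cannot be told apart from the loss of those particular libraries. In the other 209 repeats of these counts and of the gap, the value stayed within 1.5 times the count reported, or for the gap within 0.22, the pooled SD over libraries of one group of the difference between their mean synthesis and efflux levels.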
